A study of Homo sapiens with 6 samples.

Results

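The outer kinetochore KMN network was examined through its 10 genes, NDC80, NUF2, SPC24, SPC25, MIS12, DSN1, NSL1, PMF1, KNL1 and ZWINT. They were taken by name from the known composition of the network, and were 10 of the 58884 gene IDs in the tables. All 10 were high enough to test, among 14334 tested genes. The cells were HCT116, an established human colorectal carcinoma line. One group (siMatrin3, 3 libraries) received a pool of siRNAs against Matrin3, an RNA-binding protein of the nuclear matrix encoded by MATR3. The other (siCTRL, 3 libraries) received a negative control siRNA. Total RNA was taken 48 h after transfection and depleted of ribosomal RNA. The libraries were biological triplicates of this 1 line, so the p-values measure the spread between its cultures.

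The kinetochore is the protein assembly on each centromere that ties a chromosome to spindle microtubules. Its outer layer, the KMN network, joins 3 parts. The NDC80 complex is a long rod that grips the microtubule, the MIS12 complex is the base that links to the inner kinetochore, and KNL1 with ZWINT is the platform on which spindle checkpoint proteins gather. Transcripts of many of these genes cycle in dividing cells and peak late in the cell cycle.

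The estimated counts summed to between 4556658 and 8400412 per library. MATR3 averaged 70.6 ± 2.38 CPM (counts scaled by the TMM-adjusted library total) in siMatrin3 cells and 345 ± 16.7 CPM in siCTRL cells (SD, n = 3 each), with a log2 fold change of -2.29 and an edgeR adjusted p of 7.58e-11, so the knockdown was visible in the libraries labelled as such. A second gene ID with the same symbol shares its exons and may take some of its reads. The epithelial markers, defining for this line, were all 7 high enough to test. Their summed level was 1850 to 1960 CPM in siMatrin3 cells and 1640 to 1800 CPM in siCTRL cells. EPCAM and KRT19 passed the threshold as higher, 2 of 7, against 5.68% of all tested genes. The log2 fold change was above 0 for 5 of the 7. It was below 0 for CLDN3 (-0.10) and CLDN4 (-0.15), neither of them called. Of 6 fibroblast markers 1 was testable, with summed levels of 16.9 to 21.6 CPM in siMatrin3 cells and 18.6 to 20.2 CPM in siCTRL cells, and 4 were at 0 in every library. Of 5 blood markers 0 were testable, and their summed level was at most 1.1 CPM in siMatrin3 cells and 0.528 CPM in siCTRL cells. The part of these markers in the results below was not tested.

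Among the network's genes, SPC25 fell to 45.2% of its siCTRL level and ZWINT to 83.0%. These were the 2 genes past the threshold (edgeR's quasi-likelihood test, adjusted p under 0.05 over all tested genes), both lower, and 0 of the 10 were higher by edgeR, DESeq2 or limma-trend. Over all tested genes 5.18% were called lower and 5.68% higher. At an unadjusted p under 0.05 the count was 4 of 10, all lower, with NDC80 and MIS12 added. At that level 25.1% of all tested genes were called in either direction and 12.3% as lower. Those same 4 genes were lower in every siMatrin3 library than in every siCTRL library, 0 were higher in every one, and the other 6 overlapped. Over all tested genes, 14.7% were lower without overlap and 15.0% higher without overlap. The median log2 fold change was -0.13 over the 10 genes and -0.000648 over all tested genes. In such bulk RNA, fewer cells expressing a gene and less RNA per cell cannot be told apart.

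**Figure D1:**
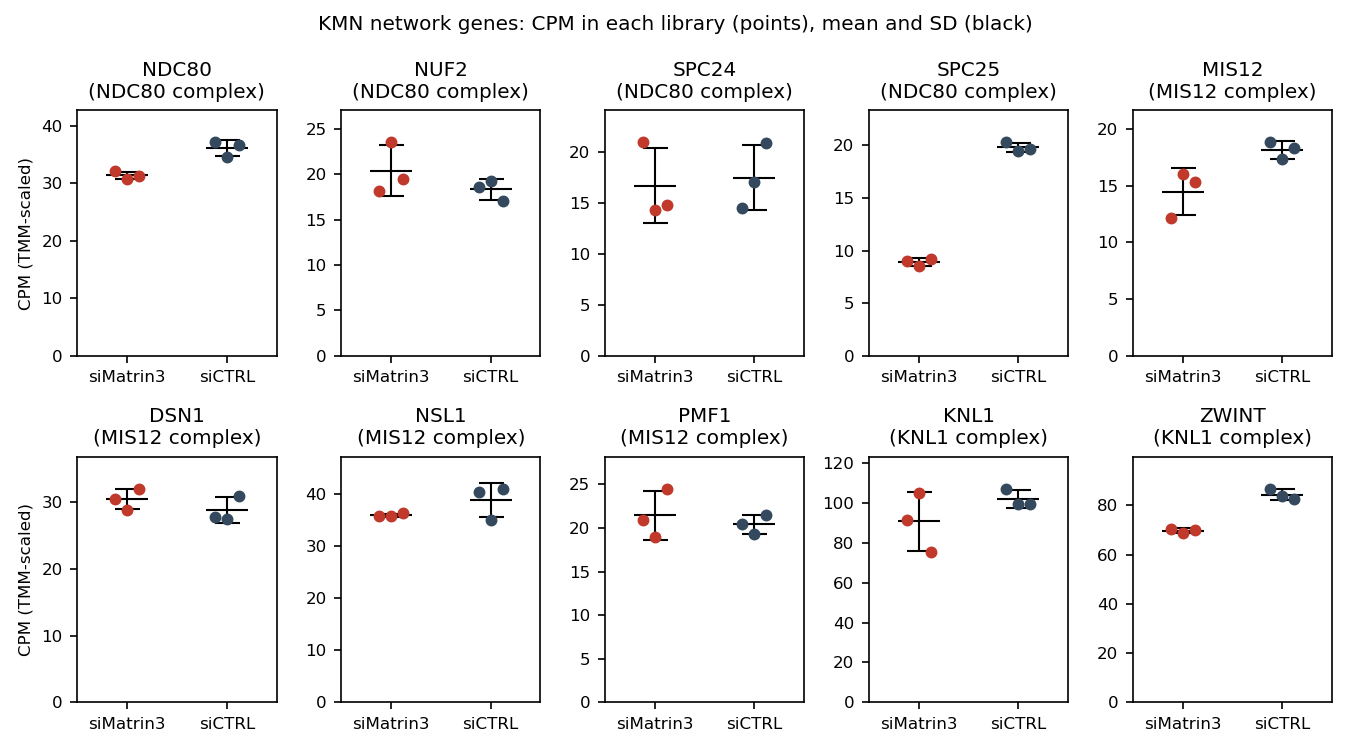
CPM (TMM-scaled, linear axes from 0) of the 10 KMN network genes in each siMatrin3 library (red, left) and each siCTRL library (dark, right), with the mean and SD in black (n = 3 each). SPC25 sits between 8.53 and 9.20 CPM in siMatrin3 cells and between 19.5 and 20.3 CPM in siCTRL cells, while NDC80, MIS12 and ZWINT show smaller gaps and the other 6 genes overlap.

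The NDC80 complex is built of 4 subunits. NDC80 and NUF2 form the end of the rod that binds microtubules, and SPC24 and SPC25 form the opposite end, which docks on the MIS12 complex and on CENPT. As sequence context for transcripts that cycle together, the 4 network genes with a match to the core of the cell cycle homology region are shown around that match. This element is a repressive promoter motif of genes expressed late in the cell cycle, searched here as TTTGAA on both strands. RefSeq promoter windows, from 250 bases before to 50 after a start site (GRCh38.p14), were found for 9 of the 10 genes, and KNL1 was not matched. A match lay in the windows of 4 of these 9, NDC80, NUF2, SPC25 and ZWINT, and in those of 18.2% of 27305 genes. Each sequence runs 5′ to 3′ on the strand of its gene, with the 6 matched bases in capitals, which read TTCAAA where the match is on the other strand.
NDC80: ccggcggagaatTTCAAAttcgaacggctt
NUF2: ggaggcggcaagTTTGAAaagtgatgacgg
SPC25: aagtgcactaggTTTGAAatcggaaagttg
ZWINT: gtcgactgtgacTTCAAAgtaatcttaggg
They lie at chr18:2571542-2571571 (plus strand) for NDC80, chr1:163321958-163321987 (plus strand) for NUF2, chr2:168890416-168890445 (minus strand) for SPC25 and chr10:56361273-56361302 (minus strand) for ZWINT. The match began 3 bases before the start site in both NDC80 and SPC25 and at base 17 after it in NUF2, and in ZWINT it began 31 or 17 bases before, for its 2 annotated start sites. SPC25 had a second match 247 bases before its start. Of these 4 genes SPC25 and ZWINT passed the threshold, and NDC80 and NUF2 did not. A second promoter motif, the CCAAT box, was also searched in these windows, as CCAAT on both strands. It was found for 5 of the 9 genes (SPC24, SPC25, MIS12, PMF1 and ZWINT) and for 39.7% of the 27305 genes. A match of either set of letters is a description and no evidence of binding.

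SPC25 encodes the partner of SPC24 in the docking end of the rod. The gene (ENSG00000152253) lies on chromosome 2 from 168834132 to 168913371 on the minus strand, and its canonical transcript has 7 exons. It had 9.05, 8.53 and 9.20 CPM in siMatrin3 replicates 1 to 3, against 20.3, 19.5 and 19.7 CPM in siCTRL replicates 1 to 3. All siMatrin3 libraries were low, all siCTRL libraries were high, and within each group the libraries were nearly level. The means were 8.93 ± 0.352 CPM in siMatrin3 cells and 19.8 ± 0.399 CPM in siCTRL cells (SD, n = 3 each). The log2 fold change was -1.15 ± 0.13 (SE), with a 95% interval of -1.43 to -0.87 and an edgeR adjusted p of 0.000148. It ranked 102 from the lowest of the 14334 fold changes. The counts behind it were modest, at 66, 49 and 59 reads in siMatrin3 cells and 94, 166 and 112 reads in siCTRL cells. SPC25 passed the threshold in all 17 alternatives tried, with log2 fold changes of -1.21 to -1.12. Per length, its level was 7.77, 7.47 and 8.08 TPM in siMatrin3 cells and 20.2, 17.2 and 17.2 TPM in siCTRL cells, again with no overlap. The annotated genes NOSTRIN and G6PC2 overlap the span of SPC25 on the opposite strand without sharing exon bases. NOSTRIN, which encodes a regulator of nitric oxide synthase trafficking, averaged 6.71 CPM in siMatrin3 cells and 6.67 CPM in siCTRL cells, and G6PC2 was at 0 in every library.

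SPC24, the direct partner of SPC25, gave no such difference. Its gene lies on chromosome 19 (11131520 to 11155807, minus strand). It had 20.9, 14.3 and 14.8 CPM in siMatrin3 cells, against 14.5, 17.0 and 20.8 CPM in siCTRL cells. The groups overlapped fully, and the highest library of each group was nearly level with that of the other. The log2 fold change was -0.060 (95% interval -0.42 to 0.30, edgeR adjusted p = 0.871), which changed sign when some single libraries were left out. This interval lies wholly above that of SPC25, although the difference between the 2 genes was not tested. SPC24 was also the least even of the 10 genes within groups, with an SD of log2 CPM of 0.296 in siMatrin3 cells and 0.257 in siCTRL cells. RSEM's effective length for it ranged from 1150 to 1890 bases in siMatrin3 libraries and from 1350 to 1580 bases in siCTRL libraries.

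NDC80, which carries the main microtubule-binding head, lies on chromosome 18 (2571557 to 2616635, plus strand, 17 exons). It had 32.1, 30.8 and 31.2 CPM in siMatrin3 cells, against 37.1, 34.6 and 36.6 CPM in siCTRL cells. Every siMatrin3 library was below every siCTRL library, by a small margin. The log2 fold change was -0.20 ± 0.08 (95% interval -0.37 to -0.017), with an unadjusted p of 0.0345 and an edgeR adjusted p of 0.157, so it was not called. Once effective lengths entered the fit as an offset, the value was -0.067. Under limma-trend on log2(TPM + 1) it was -0.16 (adjusted p = 0.442). NDC80 had 17.4 to 20.2 TPM in siMatrin3 cells and 20.5 to 21.4 TPM in siCTRL cells, without overlap. The estimated length averaged 1590 bases in siMatrin3 cells and 1760 bases in siCTRL cells.

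NUF2, the partner of NDC80 in the microtubule-binding end, lies on chromosome 1 (163266576 to 163355764, plus strand). It had 18.2, 23.5 and 19.5 CPM in siMatrin3 cells, against 18.6, 19.3 and 17.1 CPM in siCTRL cells. The groups overlapped, with siMatrin3 replicate 2 the highest library. Its log2 fold change was 0.14 (95% interval -0.13 to 0.41, edgeR adjusted p = 0.526), and on the TPM scale or with effective lengths as an offset it was below 0. The overlapping opposite-strand gene RGS5, a regulator of G protein signaling, had 2.01 CPM in siMatrin3 cells and 2.36 CPM in siCTRL cells, and the opposite-strand lncRNA ENSG00000232995 had 1.78 CPM in siMatrin3 cells and 2.79 CPM in siCTRL cells.

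Since TPM is scaled per length, the 4 subunits can be set against each other within a library. SPC25 held 13.6%, 16% and 18% of the complex's summed TPM in siMatrin3 cells, against 31.1%, 27.4% and 25.3% in siCTRL cells. No siMatrin3 value reached the siCTRL range. The means were 15.9% ± 2.22 in siMatrin3 cells and 27.9% ± 2.94 in siCTRL cells (SD, n = 3 each). NDC80's share was higher in each siMatrin3 library, at 35.4%, 37.3% and 41.7%, against 31.5%, 34.1% and 31.5% in siCTRL cells. As the shares sum to the whole, a lower SPC25 share raises the others. NUF2 and SPC24 shares overlapped between groups. With effective lengths averaged over the libraries, NUF2 no longer overlapped, at 22.1%, 29.8% and 25.4% in siMatrin3 cells and 19.2%, 20% and 17% in siCTRL cells. The summed TPM of the complex was 57.1, 46.6 and 44.8 in siMatrin3 cells and 65.0, 63.0 and 67.8 in siCTRL cells, without overlap. This sum includes SPC25, which averaged 7.77 TPM in siMatrin3 cells and 18.2 TPM in siCTRL cells. On TPM NDC80 was also lower without overlap, while NUF2 and SPC24 overlapped. TPM carried no TMM scaling between libraries.

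**Figure D2:**
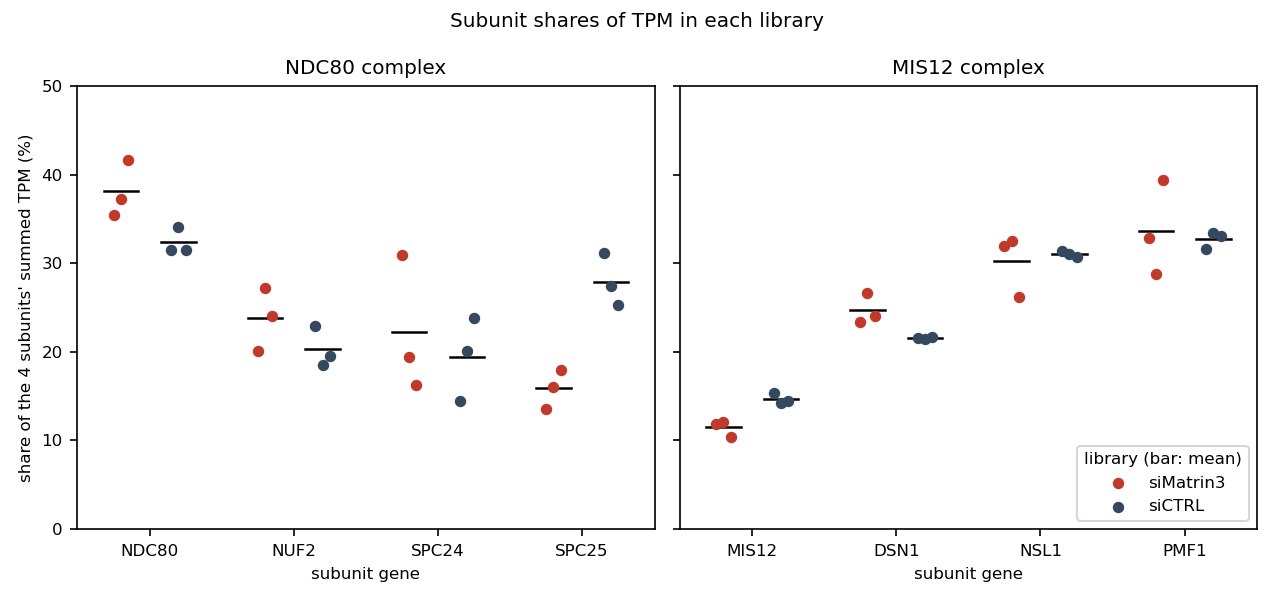
Share (%) of each subunit gene in the summed TPM of the NDC80 complex (left panel) and the MIS12 complex (right panel), for siMatrin3 libraries (red, left in each pair) and siCTRL libraries (dark, right), with bars at the means. SPC25 averages 15.9% in siMatrin3 cells and 27.9% in siCTRL cells, and MIS12 averages 11.5% in siMatrin3 cells and 14.7% in siCTRL cells.

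The MIS12 complex, also of 4 subunits, had 0 genes past the threshold by edgeR, DESeq2 or limma-trend and 1 of 4 at an unadjusted edgeR p under 0.05, against 25.1% of all tested genes. Its median log2 fold change was -0.0105. MIS12, the subunit that names it, lies on chromosome 17 (5486285 to 5490814, plus strand, 3 exons in the canonical transcript). It had 12.1, 16 and 15.3 CPM in siMatrin3 cells, against 18.8, 17.3 and 18.3 CPM in siCTRL cells. All siMatrin3 libraries were below all siCTRL libraries, and siMatrin3 replicate 1 lay farthest down. The log2 fold change was -0.33 ± 0.14 (95% interval -0.62 to -0.034), with an unadjusted p of 0.0316 and an edgeR adjusted p of 0.148. Without siMatrin3 replicate 1 it was -0.21, and it passed in 0 of the 17 alternatives. DERL2, which encodes a factor of endoplasmic reticulum protein degradation, shares 301 exon bases with MIS12 on the opposite strand and averaged 22.9 CPM in siMatrin3 cells and 22.6 CPM in siCTRL cells.

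DSN1, the subunit with the switch that Aurora B phosphorylates, lies on chromosome 20 (36751791 to 36773818, minus strand). It had 30.5, 28.9 and 32.0 CPM in siMatrin3 cells, against 27.8, 27.5 and 31 CPM in siCTRL cells. NSL1, which helps to dock the NDC80 complex, lies on chromosome 1 (212726153 to 212791782, minus strand). It had 35.8, 35.7 and 36.3 CPM in siMatrin3 cells, against 40.4, 35.1 and 41.0 CPM in siCTRL cells. Both genes overlapped between groups, with log2 fold changes of 0.086 for DSN1 (95% interval -0.11 to 0.29, edgeR adjusted p = 0.622) and -0.10 for NSL1 (-0.29 to 0.088, adjusted p = 0.527). PMF1, the partner of MIS12 in the head that meets the inner kinetochore, lies on chromosome 1 (156212993 to 156240042, plus strand). It had 20.9, 19.0 and 24.5 CPM in siMatrin3 cells, against 20.5, 19.3 and 21.5 CPM in siCTRL cells. These values overlapped too, and the log2 fold change was 0.079 (95% interval -0.18 to 0.34, adjusted p = 0.74). The readthrough transcript PMF1-BGLAP shares 587 exon bases with PMF1 on the same strand and was assigned at most 0.823 CPM in any library.

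Within the summed TPM of the MIS12 complex, the share of MIS12 was 11.9%, 12.1% and 10.4% in siMatrin3 cells, against 15.4%, 14.2% and 14.4% in siCTRL cells. DSN1 held 23.4%, 26.6% and 24.0% in siMatrin3 cells, against 21.6%, 21.5% and 21.7% in siCTRL cells. MIS12 was thus lower and DSN1 higher as a share without overlap, while NSL1 and PMF1 overlapped. As these shares too sum to the whole, a lower MIS12 share raises the rest. The CPM and the TPM of DSN1 overlapped between groups. The summed TPM itself overlapped, with 60.6, 61.4 and 57.0 in siMatrin3 cells and 65.4, 56.8 and 66.3 in siCTRL cells.

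KNL1 and ZWINT make up the third branch. ZWINT, which binds KNL1 and helps to bring the ZW10 complex to kinetochores, lies on chromosome 10 (56357227 to 56361273, minus strand). It had 70.5, 68.8 and 70.0 CPM in siMatrin3 cells, against 86.7, 83.6 and 82.4 CPM in siCTRL cells. The siMatrin3 libraries were nearly level and all below the siCTRL libraries. The means were 69.8 ± 0.895 CPM in siMatrin3 cells and 84.2 ± 2.24 CPM in siCTRL cells (SD, n = 3 each), a log2 fold change of -0.27 ± 0.06 (95% interval -0.41 to -0.13) with an edgeR adjusted p of 0.0163. The fold change was below 0 in all 17 alternatives but passed in 11 of them. The call was lost without siMatrin3 replicate 3 (adjusted p = 0.051), without siCTRL replicate 1 (adjusted p = 0.0518) and with effective lengths as an offset (adjusted p = 0.306). It was also lost under limma-trend, at 0.0946 for log2(TPM + 1) and 0.103 for log2(TPM + 0.1), and at a threshold of 0.01.

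KNL1, the large scaffold whose repeats recruit BUB1 and BUB3, lies on chromosome 15 (40594020 to 40664342, plus strand, 26 exons). It had 91.5, 105 and 75.5 CPM in siMatrin3 cells, against 107, 99.4 and 99.3 CPM in siCTRL cells. The groups overlapped because siMatrin3 replicate 2 lay within the siCTRL range, while replicate 3 was the lowest of the 6 libraries. The log2 fold change was -0.17 ± 0.10 (95% interval -0.37 to 0.040, edgeR adjusted p = 0.308). Without siMatrin3 replicate 3 it was -0.054, and without siMatrin3 replicate 2 it was -0.28, neither past the threshold. On the TPM scale KNL1 had 11.4, 14 and 11.1 TPM in siMatrin3 cells, against 15.1, 15.4 and 18.7 TPM in siCTRL cells. Here the groups did not overlap, and the difference in log2(TPM + 1) was -0.40 (limma-trend adjusted p = 0.186). With effective lengths as an offset to TMM-scaled counts, the log2 fold change was -0.32 (edgeR adjusted p = 0.19). TPM carried no TMM scaling between libraries, and limma-trend on log2(TPM + 1) called 31 genes higher and 118 lower over all tested genes. The share of all tested genes that also did not overlap on TPM was not counted. The effective length of KNL1 averaged 7070 bases in siMatrin3 cells and 6440 bases in siCTRL cells. KNL1 and ZWINT together had 63.0, 66.5 and 61.4 TPM in siMatrin3 cells, against 81.3, 81.3 and 78.1 TPM in siCTRL cells, while KNL1's share of that sum overlapped, at 18% to 21.1% in siMatrin3 cells and 18.6% to 23.9% in siCTRL cells.

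Compared per length, ZWINT was the most abundant transcript of the network in both groups, at 51.5 TPM in siMatrin3 cells and 63.8 TPM in siCTRL cells, with no library of another network gene in its range. MIS12 was the least abundant, at 6.85 TPM in siMatrin3 cells and 9.24 TPM in siCTRL cells. Between them, neighbours in the order mostly did not differ beyond the spread of the libraries. In siMatrin3 cells the order below ZWINT was PMF1, NDC80, NSL1, DSN1, KNL1, NUF2, SPC24 and SPC25, and of these neighbours each pair overlapped in range. SPC25 and MIS12 did not, with SPC25 at 7.47 to 8.08 TPM and MIS12 at 5.94 to 7.41 TPM. In siCTRL cells the order below ZWINT was NDC80, PMF1, NSL1, SPC25, KNL1, DSN1, NUF2, SPC24 and MIS12, and the one gap other than that under ZWINT lay between KNL1 (15.1 to 18.7 TPM) and DSN1 (12.2 to 14.4 TPM). SPC25 thus held rank 9 of the 10 genes in siMatrin3 cells and rank 5 in siCTRL cells.

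The kinetochore proteins that the network binds gave a mixed picture. Of 25 partner genes, all tested, 3 rose and 1 fell, against 5.68% called higher and 5.18% called lower over all tested genes. Their median log2 fold change was -0.0090. ZW10, a subunit of the RZZ complex that recruits dynein and holds checkpoint proteins, averaged 44.7 ± 1.47 CPM in siMatrin3 cells and 34.3 ± 1.76 CPM in siCTRL cells (log2 fold change 0.39, edgeR adjusted p = 0.00831). BIRC5, survivin, averaged 130 ± 4 CPM in siMatrin3 cells and 109 ± 3.16 CPM in siCTRL cells (0.25, adjusted p = 0.0159). In the same Aurora B and PP1 list, PPP1CC, a catalytic subunit of the PP1 phosphatase that docks on KNL1, rose (0.21, adjusted p = 0.0479), and INCENP, the scaffold of the Aurora B complex, fell (-0.24, adjusted p = 0.0415). ZW10 passed without any one library, and the calls of the other 3 were each lost when some single libraries were left out. The count was 1 without siMatrin3 replicate 2 or without siCTRL replicate 3, and 2 without siMatrin3 replicate 3 or without siCTRL replicate 1. Under limma-trend on TPM, and in the fit that carries effective lengths as an offset, 0 of the 25 were called.

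When replicate numbers entered as a block, the count of partners rose to 7, 4 higher and 3 lower, and BUB3, KNTC1 and PPP1CB were added (the last 2 are named because they complete that count). The inner kinetochore receptors, which hold the MIS12 and NDC80 complexes on the chromosome, had 0 of 5 past the threshold, and CENPW, the histone-fold partner of CENPT, was lowest in p with 9.27 CPM in siMatrin3 cells and 11.8 CPM in siCTRL cells (adjusted p = 0.185). The Ska complex, which strengthens the grip of NDC80 on microtubules, had 0 of 3, led by SKA3 with 54.4 CPM in siMatrin3 cells and 47.5 CPM in siCTRL cells (adjusted p = 0.13). The checkpoint proteins that gather on KNL1 had 0 of 6, led by BUB3 with 229 CPM in siMatrin3 cells and 204 CPM in siCTRL cells (adjusted p = 0.0698). At an unadjusted p under 0.05 each of these 3 lists had 1 gene, against a share of 25.1% over all tested genes, and by DESeq2 BUB3 was the one gene of them that passed. The RZZ complex with Spindly had 1 of 4 past the threshold and the Aurora B and PP1 list 3 of 7. At an unadjusted edgeR p under 0.05 their counts were 3 of 4 and 4 of 7, against the same 25.1%.

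**Figure D3:**
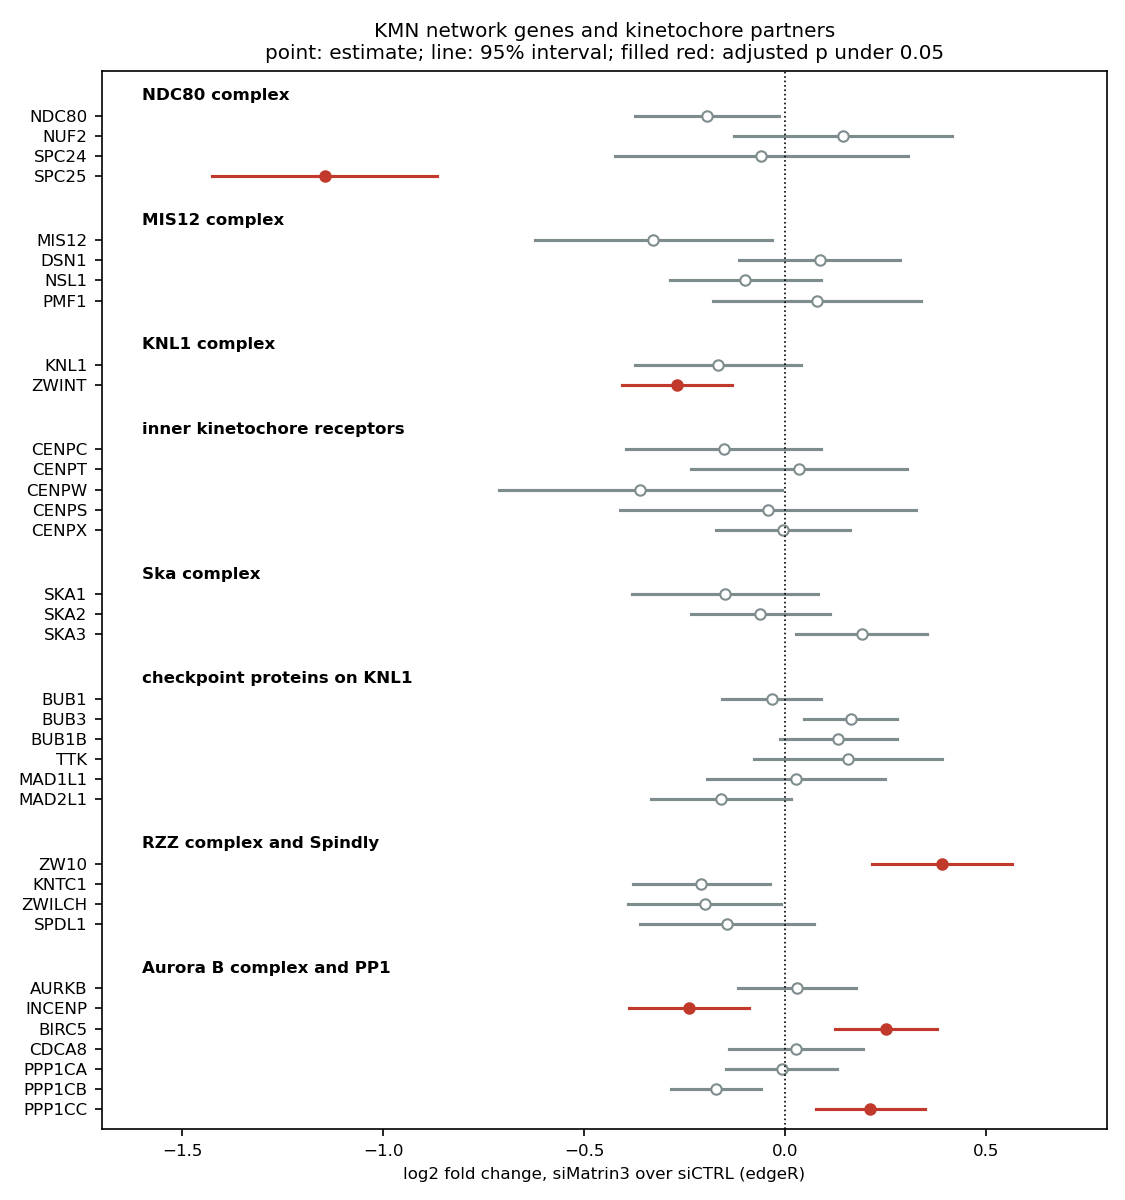
Log2 fold change (siMatrin3 over siCTRL, edgeR) of the 10 KMN network genes and 25 kinetochore partners, grouped by complex, with 95% intervals as lines and filled red points for an adjusted p under 0.05. SPC25 lies at -1.15, outside the range of -0.36 to 0.39 that the 25 partners span. The partners are a chosen list that leaves out other kinetochore genes, such as CENPE at -0.50.

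The same libraries were read for cell cycle markers, because the network's transcripts follow the cycle. Of 14 G2/M markers 0 rose and 1 fell, against 5.68% called higher and 5.18% called lower over all tested genes. Their median log2 fold change was 0.10. CENPE, the kinetochore motor that carries chromosomes toward the spindle equator, was the one that fell, at 43.6 ± 9.71 CPM in siMatrin3 cells and 62.0 ± 6.30 CPM in siCTRL cells (-0.50, edgeR adjusted p = 0.025). Its call held without siMatrin3 replicate 2 and was lost when any other single library was left out. At an unadjusted p under 0.05 the count was 3 of 14, against 25.1% of all tested genes, and DESeq2 called MKI67 and PLK1 higher, both named after their values were seen, and did not call CENPE. With the replicate block, MKI67 and PLK1 were also called higher, so that 2 G2/M markers rose and 1 fell, and over both lists 10 genes were called, 8 higher and 2 lower. The summed level of the G2/M markers was 2650 to 2870 CPM in siMatrin3 cells and 2580 to 2720 CPM in siCTRL cells, which overlapped. Of 12 S phase markers 5 rose and 1 fell, against the same 5.68% and 5.18% over all tested genes. At an unadjusted edgeR p under 0.05 the count was 7 of 12, against 25.1%. Their median log2 fold change was 0.17. The summed levels were 2700 to 2810 CPM in siMatrin3 cells and 2520 to 2620 CPM in siCTRL cells, without overlap. The genes that rose were 4 subunits of the MCM helicase, MCM2, MCM3, MCM5 and MCM6 (log2 fold changes 0.24 to 0.36), and TYMS, thymidylate synthase (0.19). RRM2, a subunit of ribonucleotide reductase, fell (-0.38, adjusted p = 0.000299). The count of 7 over both lists was 3 without siMatrin3 replicate 1 or without siCTRL replicate 3 and 4 without siMatrin3 replicate 3 or without siCTRL replicate 1. It was 1 (MCM5) with effective lengths as an offset and 0 under limma-trend. Of the 14 G2/M markers 11 had a log2 fold change above 0 and 3 below 0, and of the 12 S phase markers 10 and 2. The part of the cell cycle in the lower values of SPC25 and ZWINT was not tested.

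Among the 11455 tested genes that averaged 5 CPM or more, those whose centred log2 CPM over the 6 libraries lay nearest to that of SPC25 were ERLIN1, CDC14B, TMEM38B, RAB8B and TNRC6C. The root mean square distances were 0.0835, 0.104, 0.111, 0.122 and 0.125 on the log2 scale in that order. ERLIN1, an endoplasmic reticulum lipid raft protein, averaged 37.8 CPM in siMatrin3 cells and 79.2 CPM in siCTRL cells. CDC14B, a dual-specificity phosphatase, averaged 22.7 CPM in siMatrin3 cells and 46.7 CPM in siCTRL cells. None of the other 9 network genes was among these 5, and the likeness rests on the difference between the groups, as each of the 5 had a log2 fold change between -1.31 and -0.96.

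**Figure D4:**
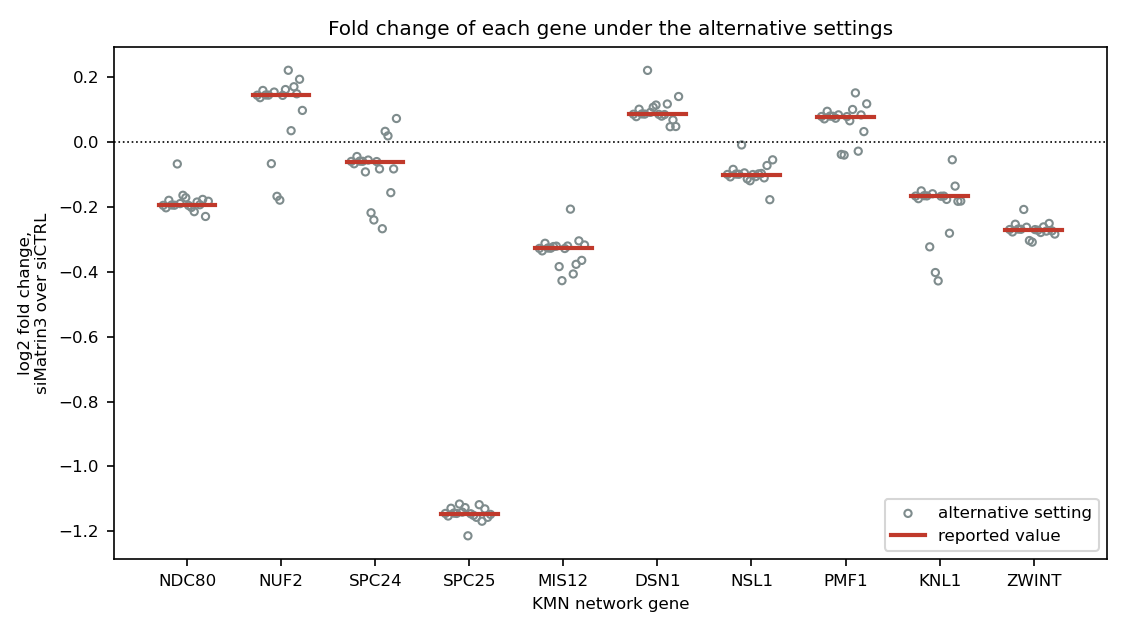
Log2 fold change (siMatrin3 over siCTRL) of each KMN network gene as reported (red bar) and under 17 alternative settings (open circles). SPC25 stays between -1.21 and -1.12, ZWINT and MIS12 stay below 0, and NUF2, SPC24 and PMF1 take both signs.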

How the data were processed

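The labels credit cutadapt, TopHat and RSEM on hg19 to the authors' processing. The labels name a stranded mRNA kit and the study's methods a directional kit with ribosomal RNA depletion. The deposited tables give an expected count per gene, with no normalization, TPM scaled by RSEM within each library, and an effective length. The sources used here give neither annotation release nor strand setting, so reads of overlapping genes are uncertain. Positions are those of GENCODE 44 on hg38, by ID.

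Expected counts were rounded, filtered (filterByExpr, minimum count 10) and TMM-scaled. The TMM factors were 0.961 to 0.989 in siMatrin3 libraries and 1.02 to 1.04 in siCTRL libraries. TPM was used without these factors, so differences in TPM between groups include this shift. The groups were compared by edgeR's two-sided quasi-likelihood test (edgeR 4.0.16 in R 4.3.3), and p-values were adjusted by Benjamini and Hochberg's method with a threshold of 0.05. DESeq2 1.42.0 and limma-trend (limma 3.58.1) were alternatives. The script was tested on simulated data. All pairs of replicates differed beyond sampling noise (chi-square over its degrees of freedom 2.62 to 4.37), and the biological coefficient of variation was 6.44%. Replicate numbers in the sample titles were checked as pairs. Same-numbered libraries deviated together weakly (correlations 0.107, 0.104 and 0.157). With 3 libraries per group, this cannot show that the numbers are pairs. The libraries were treated as paired only in an alternative with a replicate block. The members and lists were chosen with earlier results of these data known. Named genes were the 10 network genes, MATR3, genes overlapping the network genes (1 is not reported here), those past the threshold or lowest in p in each list, and the 5 profiles nearest to SPC25.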

Additional observations from a re-analysis of the deposited data

How the results depend on the processing

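SPC25 kept its call and MATR3 its call in all 17 alternatives, while ZWINT kept its call in 11. The count of network genes past the threshold, 2 as reported, was 1 with effective lengths as an offset, 1 under limma-trend on log2(TPM + 1) or log2(TPM + 0.1) and 1 at an adjusted p under 0.01, and it ranged from 1 to 2 when single libraries were left out. The count over all genes, 1557 as reported, was 204 with the offset, 149 and 132 under limma-trend with pseudocounts of 1 and 0.1, and 589 at the 0.01 threshold, and it ranged from 707 to 1256 without single libraries. For the 25 partners, 4 as reported, it was 0 with the offset, 0 and 0 under limma-trend, 1 at the 0.01 threshold and 1 to 3 without single libraries. For the 26 cell cycle markers, 7 as reported, these values were 1, 0, 0, 3 and 3 to 8. The 0.01 threshold gives fewer calls by construction, and for the others the cause was not tested.

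With the replicate block, which pairs libraries by number, the partners' count was 7 that of the cell cycle markers 10 and that over all genes 2259, the network's count was again 2, with SPC25 at -1.15, and no other call among the network genes changed. NUF2 turned negative with the offset (-0.066) and under limma-trend (-0.17 and -0.18). PMF1 did so under limma-trend (-0.038 and -0.040) and without siMatrin3 replicate 3 (-0.028), with a range of -0.028 to 0.15 over the single libraries left out. SPC24 turned positive without siMatrin3 replicate 2 or 3 and without siCTRL replicate 3, with a range of -0.27 to 0.073. None of these 3 genes passed the threshold in any setting. In an alternative chosen after seeing the data, with effective lengths averaged over libraries, SPC25's share of its complex was 15.7% in siMatrin3 cells and 28.4% in siCTRL cells. Depth limits the smaller genes, since SPC25 averaged 91 counts per library and MIS12 103.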
